A study of Mus musculus with 9 samples.

Results

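The 10 genes described here encode proteins of the accessory structures of the sperm tail, and were measured in whole testis of mice with and without the actin-binding protein profilin 3 (Pfn3). They were taken by their symbols: Akap3, Akap4, Fsip1, Fsip2, Ropn1 and Ropn1l for the fibrous sheath, and Odf1, Odf2, Odf3 and Odf4 for the outer dense fibres. All 10 were found, each in 1 row, among 38674 genes. The counts of all 10, and of 23282 of the 38674 genes, belong to loci assembled from the reads. The bounds of such loci can differ from the annotated coordinates given below. The libraries came from 3 Pfn3 WT, 3 Het and 3 KO males on the C57BL/6 strain, each a replicate of its genotype. The mutant alleles of the study are short CRISPR/Cas9 deletions made in several founder lines. The males were sexually mature, 2 to 6 months old, an age stated for all experiments in the methods on sperm. Which line gave these testes is not given in the sources used here. Each value is a normalized count, a gene's read count divided by 1 size factor per animal, from a 3′ end sequencing assay (QuantSeq) that reads the end of each polyadenylated transcript.

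The sperm tail carries a 9 + 2 microtubule axoneme wrapped by structures that spermatids build late in their development. Outer dense fibres run beside the axonemal doublets through the midpiece and most of the principal piece, and stiffen the tail. The fibrous sheath encloses the fibres in the principal piece as longitudinal columns joined by ribs, and anchors protein kinase A and glycolytic enzymes close to the axoneme. Most of their messages are made in haploid spermatids, and many are stored there before the tail is assembled. In whole testis, fewer spermatids and less RNA per spermatid cannot be told apart.

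No one of the 10 genes passed the study's cutoffs in any comparison of genotypes. Within a genotype they behaved in different ways. Akap4, Odf3 and Akap3 differed between animals of the same genotype by up to 116-fold, while Ropn1l stayed within 1.52-fold over all 9 animals. Odf1, Odf2 and Odf4 were below every WT value in each KO animal, 3 of 10 beside 10.5% of all genes. Fsip2 was above every Het value in each KO animal, 1 of 10 beside 5.12% of all genes. Odf1 and Ropn1l were below every Het value in each KO animal, 2 of 10 beside 4.9%. Odf4 was below every WT value in each Het animal, 1 of 10 beside 6.49%.

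The genes lie on 6 autosomes and the X chromosome of GRCm38, the authors' build. Akap4, the main structural protein of the fibrous sheath, occupies the plus strand of chrX:7067519-7078609, and Akap3, the scaffold protein laid down before it, the plus strand of chr6:126853098-126874308. Fsip1 (minus strand, chr2:118130424-118256966) and Fsip2 (plus strand, chr2:82943634-83008937) were named as proteins that interact with the fibrous sheath. Fsip2 has 23 exons and 6995 codons in the annotation used, against 212 codons in Ropn1 (plus strand, chr16:34649921-34678618) and 218 in Ropn1l (minus strand, chr15:31441211-31453737), the ropporins that bind A-kinase anchoring proteins. Odf1 (plus strand, chr15:38219203-38226735) has 2 exons and 248 codons and encodes a cysteine-rich relative of small heat shock proteins. Odf2 (plus strand, chr2:29889221-29931746), a coiled-coil protein that is also a centriole component, has 14 annotated coding transcripts with 8 distinct 3′ ends spread over 30639 bp. Odf3 (plus strand, chr7:140847805-140851018) encodes a fibre protein spread along the tail, and Odf4 (minus strand, chr11:68921835-68927081) a membrane protein of the fibres. An unstranded count could not separate Odf3 from Gm45785, which overlaps it on the other strand and is not analysed here.

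The upstream sequences of Akap3 and Akap4 are shown because these genes varied most among those of the fibrous sheath and because their windows share a long run of letters. Windows of 250 bases before the annotated start were taken from RefSeq (GRCm38.p6), and 8 of the 10 genes had at least 1 window. Capitals mark the longest run of identical bases, 20 bases, that both windows hold on the strand of the gene. It lies between 34 and 15 bases before the start of Akap3 and between 47 and 28 bases before that of Akap4. The windows are the plus strand of chr6:126852848-126853097 and of chrX:7067265-7067514.
Akap3: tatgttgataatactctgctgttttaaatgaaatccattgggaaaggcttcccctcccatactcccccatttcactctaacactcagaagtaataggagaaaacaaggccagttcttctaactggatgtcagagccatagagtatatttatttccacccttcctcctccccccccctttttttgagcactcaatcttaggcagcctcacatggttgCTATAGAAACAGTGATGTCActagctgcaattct
Akap4: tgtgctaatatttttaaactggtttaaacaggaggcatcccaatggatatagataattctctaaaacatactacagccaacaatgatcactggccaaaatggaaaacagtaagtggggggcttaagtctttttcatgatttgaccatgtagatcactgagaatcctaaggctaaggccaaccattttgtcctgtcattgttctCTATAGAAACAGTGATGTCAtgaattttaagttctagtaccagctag

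The run was found, on either strand, in 2 of 32851 promoter windows of the same length, which were those of Akap3 and Akap4. Over the other 27 pairs of these genes the longest shared run was 6 to 11 bases, with a median of 8. The run ends in TGATGTCA, which was found on either strand in 2 of the 8 genes with a window, again Akap3 and Akap4, and in 2.93% of all windows. The cyclic AMP response element TGACGTCA was in none of the 8 and in 1.55% of all windows, and its shorter core TGACG was in those of Fsip2 and Odf2 and in 17.8% of all windows. The X-box letters GTTGCC were in the windows of Odf3 and Ropn1l and in 10.4% of all. Both of these windows overlap an annotated exon of their own gene. TATAAA was in none of the 8 and in 12.4% of all. All motifs were searched on both strands, TGACG also lies within TGACGTCA, and the shared run was noticed after the values were known. A match is a string of letters and not a binding site.

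The libraries held 3375546 to 4287335 reads on genes, and the 10 genes together took 0.401% to 0.708% of them. WT 1 stood apart from the other animals. Of 5849 genes with a mean of at least 100 in 9 animals, 652 had a gap of at least 4-fold somewhere in the order of their animals, and in 175 of these WT 1 was alone below the gap, in 54 Het 1. The same counts for the other 7 animals were 5 to 18. The targeted gene, Pfn3, gave 592, 383 and 373 normalized counts in WT, 136, 339 and 326 in Het and 74.7, 215 and 279 in KO. The 3′ end that the assay reads lies outside the stretch between the study's guides, so these values do not check the genotype. The nuclear protein genes Tnp1, Tnp2, Prm1 and Prm2, markers of elongating spermatids, were at 12426 to 112269 in every animal. Of the spermatogonia markers, Nanos3 was at 0 in all animals but WT 1 and Het 2, and Lin28a was at 0 in WT 1, WT 3 and Het 1.

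**Figure D1:**
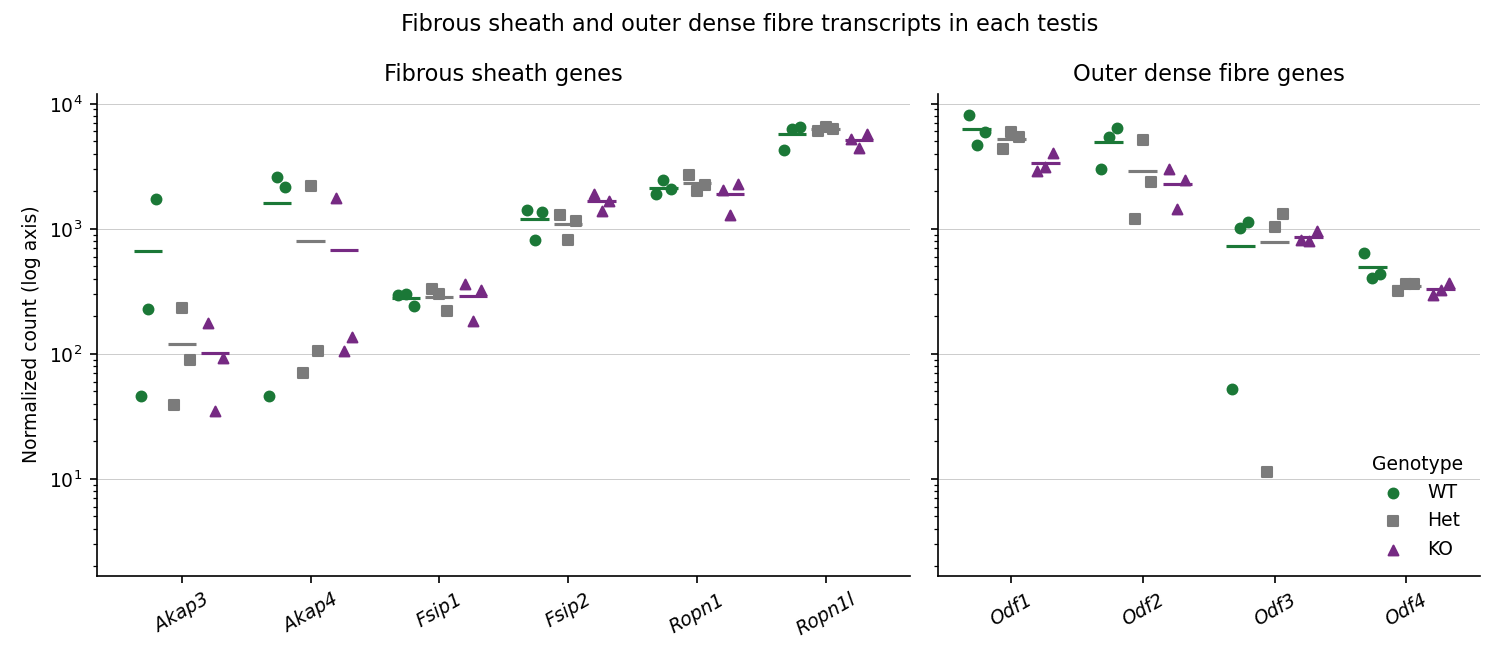
Normalized count (log axis) of each gene in each of 9 testes; symbols are single animals of the WT, Het and KO genotypes and bars are the means of 3 animals. Akap4 and Odf3 split the animals into high and low values within genotypes, while Fsip1, Fsip2, Ropn1 and Ropn1l stay within 2.31-fold over all animals.

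Akap4 gave either a high or a low value, and both occurred in each genotype. Its normalized counts were 45.8, 2573 and 2174 in WT, 70.9, 2209.7 and 106 in Het and 1770.2, 105 and 137 in KO. The high animals, between 1770.2 and 2573, were WT 2, WT 3, Het 2 and KO 1, and the other 5 were between 45.8 and 137, so the groups overlapped fully. The low value of WT 1 rested on 37 reads. The SD within genotypes was 2.77 on the log2 scale, against 0.125 from counting reads, and only 1.49% of the 5849 genes had an SD as large. The 3′ ends of the annotated coding transcripts of Akap4 lie within 18 bp of each other. Whether reads of Akap4 were assigned alike to its assembled locus in all animals was not tested. Clcn5, which was the neighbour within 150 kb with a mean of at least 10, was between 28.9 and 81.3. Its r with Akap4 was -0.77 over the 9 animals.

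The 4 animals with high Akap4 had 4092798 to 4287335 reads on genes and the 5 with low Akap4 had 3375546 to 4092736. These ranges did not overlap, so the 4 high animals were the 4 with the most reads. At the edges of the ranges lay WT 3, with Akap4 at 2174, and KO 3, with Akap4 at 137. The part of depth in the split was not tested.

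Akap3 was at 45.8, 229 and 1723 in WT, 38.7, 231 and 90.0 in Het and 176, 34.8 and 92.1 in KO. WT 3 alone exceeded 231, and the other 8 animals spread from 34.8 to 231 without order by genotype. Across the 9 animals the log2 levels of Akap3 and Akap4 had a Pearson r of 0.818. The 4 animals with high Akap4 were also the 4 with the highest Akap3. The 5 neighbours of Akap3 within 150 kb with a mean of at least 10 had r between -0.68 and 0.48 with it.

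Fsip1 stayed within 1.96-fold over all animals and Fsip2 within 2.31-fold, ordinary ranges in these data. Among the 5849 genes, 66.7% had at least as wide a range as Fsip1 and 50.3% as Fsip2. Fsip1 was at 295, 302 and 243 in WT, 328, 302 and 219 in Het and 359.9, 184 and 323 in KO, with group means of 280.0 ± 32.0, 283 ± 56.8 and 289 ± 92.8 (SD, n = 3). Both the lowest and the highest value of Fsip1 belonged to KO animals. Fsip2 was at 1403, 817 and 1369 in WT, 1296, 819 and 1162 in Het and 1889, 1393 and 1681 in KO. Each KO value lay above each Het value, while KO 2 lay below WT 1.

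The ropporin genes had the smallest SDs within genotypes of the 6 fibrous sheath genes, 0.304 (log2) for Ropn1 and 0.225 for Ropn1l. Ropn1 was at 1887, 2435 and 2067 in WT, 2695, 1993 and 2248 in Het and 2061, 1289 and 2291 in KO, and KO 2 was the lowest animal. Ropn1l was at 4296, 6295 and 6541 in WT, 6021, 6467 and 6332 in Het and 5198, 4433 and 5779.7 in KO. Each KO value of Ropn1l was below each Het value, and the lowest animal of all was WT 1. Of the 5849 genes, 80.2% had an SD at least as large as that of Ropn1l.

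Odf1 was the outer dense fibre gene with the clearest order by genotype. It was at 8067, 4700.0 and 5938 in WT, 4319, 5954 and 5444 in Het and 2882, 3118 and 4070.0 in KO. The 3 KO animals were the 3 lowest of the 9, and the Het animals overlapped the WT animals. Group means were 6235 ± 1703, 5239 ± 837 and 3357 ± 629 (SD, n = 3).

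Odf2 was at 3004, 5464 and 6374 in WT, 1197, 5096 and 2349 in Het and 2998, 1451 and 2451 in KO. The highest KO animal and the lowest WT animal, KO 1 and WT 1, were nearly level, and the Het animals spread over 4.26-fold, across both other groups. Since the assay reads 3′ ends and Odf2 has 8 of them in the annotation, its count sums transcripts that end at different places.

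Odf3 was low in 2 animals only. It was at 52.0, 1016 and 1129.7 in WT, 11.3, 1026 and 1310.1 in Het and 813, 792 and 955 in KO. WT 1 and Het 1 held 42 and 12 reads, and the other 7 animals stayed between 792 and 1310.1, so the KO animals lay within the range of the others. The low animals are the same 2 that most often stood alone among all genes. The 6 neighbours within 150 kb with a mean of at least 10 had r between -0.59 and 0.58 with Odf3.

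Odf4 was at 639, 406 and 435 in WT, 319, 365 and 359.8 in Het and 294, 324 and 370.0 in KO. All 6 mutant animals were below the lowest WT animal, and Het and KO overlapped. The group means were 493 ± 127, 348 ± 25.0 and 329 ± 38.4 (SD, n = 3).

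**Figure D2:**
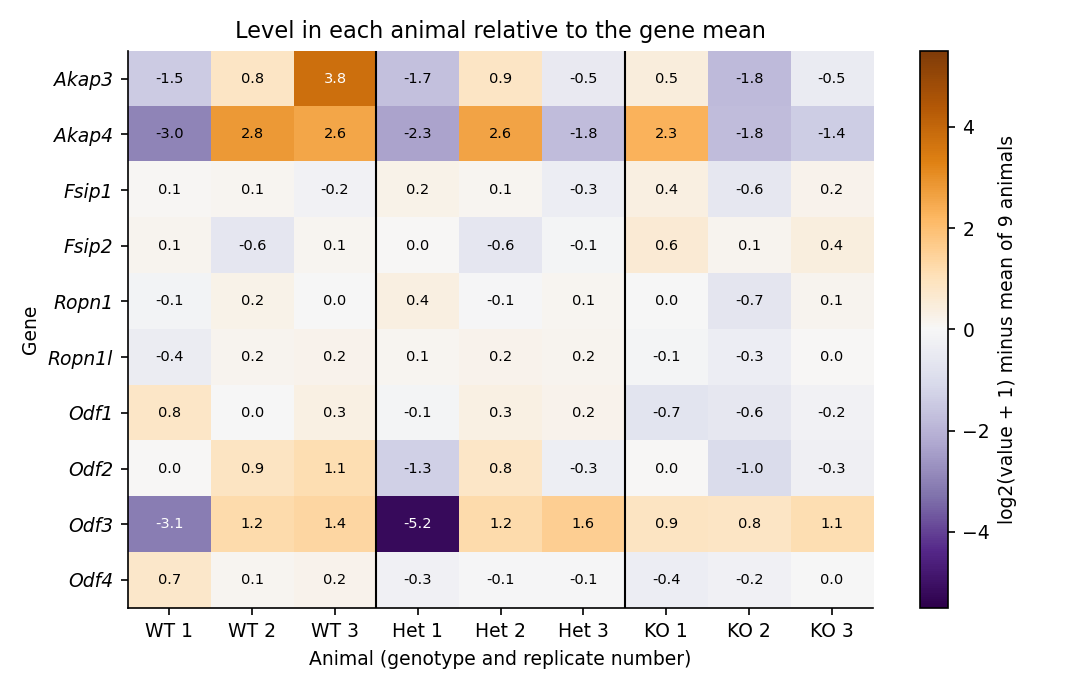
Level of each gene (rows) in each animal (columns), as log2(value + 1) minus the mean of the gene over 9 animals; vertical lines divide WT, Het and KO. Akap4 is high in WT 2, WT 3, Het 2 and KO 1, Odf3 is low in WT 1 and Het 1, and the rows of Fsip1, Ropn1 and Ropn1l are pale.

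The comparison of KO with WT asks whether testes without profilin 3 hold other amounts of these messages. Of the 10 genes, 0 were called by limma, where a call needs an adjusted p under 0.05 and a log2 fold change above 1.5 or below -1.5, and 5 of 14223 genes, 0.0352%, were called. With 1 animal left out limma called 0 genes (without WT 2, WT 3 or KO 2) to 49 (without WT 1), and each time 0 of the 10. DESeq2 on the recovered reads also called 0 of the 10, against 0.651% of the genes it tested. At an unadjusted p under 0.05 limma gave Odf1 and Odf2, 2 of 10, beside 8.07% of all genes. Each KO animal was below each WT animal in 3 of the 10, Odf1, Odf2 and Odf4, beside 10.5% of all genes, and above each WT animal in 0, beside 9.41%.

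On the log2(value + 1) scale Odf1 differed between KO and WT by -0.87 (SE 0.25), with an adjusted p of 0.610 from limma. The fitted difference of Odf2 was -1.10 (SE 0.38, adjusted p = 0.610, limma), and that of Odf4 was -0.56 (SE 0.24, adjusted p = 0.610, limma). Akap3 had the most negative value, -1.66 with an SE of 1.33. It was -0.31 without WT 3 and -2.91 without WT 1, and -2.71 with DESeq2. Akap4 stood at -1.11 (SE 1.84), at -3.00 without WT 1 and at -0.11 without WT 2. Odf3 was the most positive at 1.11 (SE 1.17), and turned to -0.33 without WT 1. Fsip2 was at 0.50 (SE 0.26), Ropn1 at -0.21 (SE 0.26), Ropn1l at -0.14 (SE 0.21) and Fsip1 at -0.01 (SE 0.30). The median over the 10 genes was -0.39, with 8 negative values, and that of all genes tested was 0.02, with 48.6% negative.

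**Figure D3:**
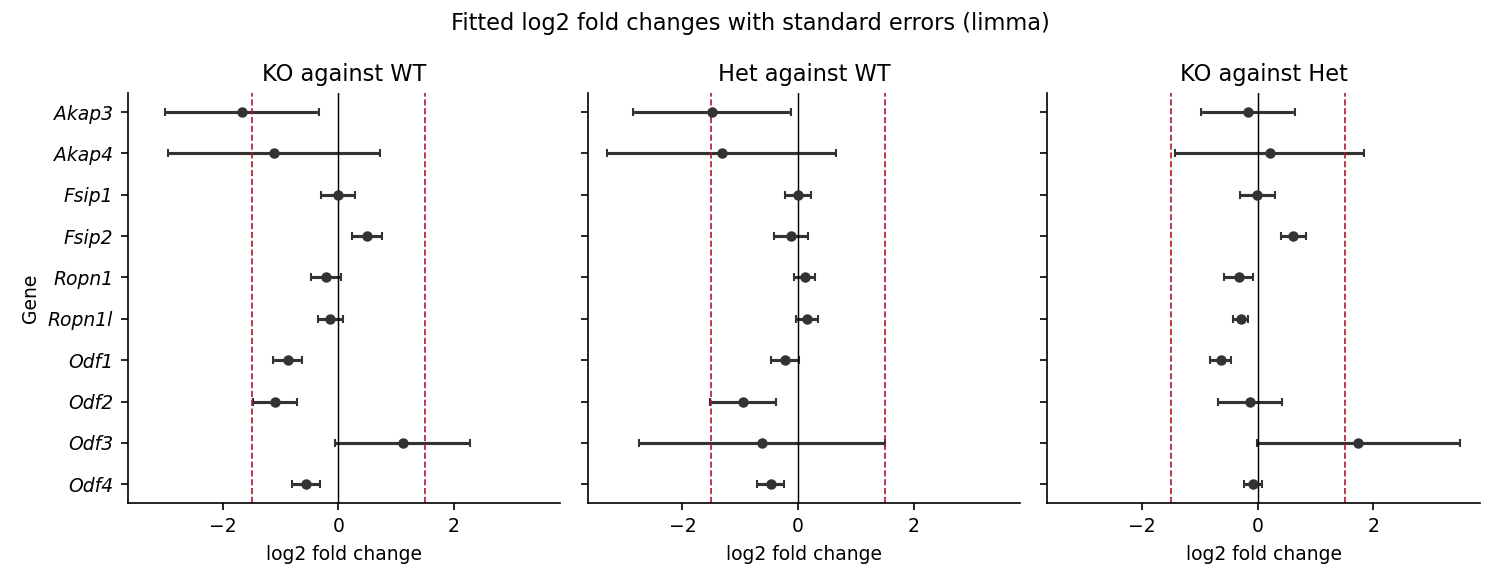
Fitted log2 fold change of each gene in the 3 comparisons (limma, log2(value + 1) scale); points are estimates, bars 1 SE, dashed lines the cutoff of 1.5 in either direction. The widest bars belong to Akap3, Akap4 and Odf3, and in KO against WT the bars of Akap3, Odf1, Odf2 and Odf4 lie to the left of 0.

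The mean level of elongating spermatid markers was also lower in each KO animal than in each WT animal. The mean log2 level of Tnp1, Tnp2, Prm1 and Prm2 was 15.65 to 15.75 in WT, 15.13 to 15.52 in Het and 14.64 to 15.33 in KO, with no marker at 0. All 4 had negative fitted differences in KO against WT, with a median of -0.58, and 0 of 4 were called. The 5 round spermatid markers had a median of -0.52, with 4 of 5 negative. Set against the mean of the 4 elongating spermatid markers in each animal, the KO minus WT difference became -0.25 for Odf1, -0.47 for Odf2 and 0.07 for Odf4, and in all of them the KO and WT animals then overlapped. The rescaling adds 0.63 to the difference of every gene, so that the median became 0.65 over all genes tested and 0.24 over the 10. On that scale each KO animal was above each WT animal in 4 of the 10 (Fsip1, Fsip2, Ropn1 and Ropn1l), beside 40.1% of all genes, and below in 0, beside 0.886%. The rescaling moves every gene alike, so it cannot show the part of the spermatid markers in these differences. That part was not tested.

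Heterozygous and WT animals were compared next, which asks whether 1 functional copy goes with other levels. Of the 10 genes 0 were called by limma, where 0 of 14216 genes, 0%, were called. DESeq2 also called 0 of the 10, and 32 genes in all. None of the 10 had an unadjusted p under 0.05 from limma, beside 3.34% of all genes. Odf4 was below WT in each Het animal, 1 of 10 beside 6.49% of all genes, with -0.48 (SE 0.23) and an adjusted p of 0.779 from limma. In 0 of the 10 was each Het animal above each WT animal, beside 6.76%. Odf2 was at -0.96 (SE 0.57), and between -1.49 and -0.45 as each animal was left out. Akap4 was at -1.32 (SE 1.98), and between -3.20 (without WT 1) and -0.31 (without WT 2). Fsip1 was at 0.00 (SE 0.23). Akap3 was at -1.49 (SE 1.36), at -0.14 without WT 3 and at -2.74 without WT 1. The median over the 10 was -0.35, and -0.10 without WT 1 and Het 1, which were left out after the values were seen.

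KO and Het animals were compared last. Limma called 0 of the 10, where 8 of 14343 genes, 0.0558%, were called. With 1 animal left out it called 0 genes (without Het 3 or KO 1) to 39 (without Het 2), and each time 0 of the 10. An unadjusted p under 0.05 was found for Odf1 and Fsip2, 2 of 10 beside 3.56% of all genes. Odf1 was at -0.65 (SE 0.19, adjusted p = 0.973, limma) and Fsip2 at 0.61 (SE 0.22, adjusted p = 0.973, limma). Each KO animal was below each Het animal for Odf1 and Ropn1l, 2 of 10 beside 4.9%, and above for Fsip2, 1 of 10 beside 5.12%. The fitted difference of Ropn1l was -0.30 (SE 0.13). Odf3 was at 1.74 (SE 1.76), and at -0.45 without Het 1. The 3 comparisons share animals, so their values for a gene are not independent of each other.

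The partners of these proteins were read from lists of related genes, again in KO against WT, and 0 of their genes were called by limma or by DESeq2. Among 12 genes of proteins bound to the fibrous sheath, 8 had negative differences, with a median of -0.51. The lowest was Cabyr, a calcium-binding protein of the sheath, at -1.07 (SE 0.20), with an adjusted p of 0.402 from limma and of 0.00398 from DESeq2, where the fold change of -1.07 is short of the cutoff. It was at 1008, 757 and 903 in WT, 681, 839.9 and 691 in Het and 380.5, 389.9 and 496 in KO, so that KO lay below WT and Het with no overlap. The highest was Ldhc, the lactate dehydrogenase of the testis, at 1.87 (SE 1.36). Its level was 799.8 in WT 1 and 1925 in Het 1, and 25591 to 36443 in the other 7 animals, as for Odf3.

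The 6 subunits of protein kinase A, the enzyme anchored by Akap3 and Akap4, had a median of 0.13. The regulatory subunit Prkar2a was lowest, at -0.89 (SE 0.23, adjusted p = 0.604, limma), with 1392, 1030.3 and 1087 in WT and 706, 489 and 702 in KO. Prkar1a was highest at 1.71 (SE 1.75), with 13.6 in WT 1 and 13.2 in Het 1 and between 824 and 1476 in the others.

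Among genes linked to the outer dense fibres 9 of 11 were tested, 8 of these were negative and the median was -0.55. Odf3b, a paralogue of Odf3, was lowest at -0.95 (SE 0.31), with 149, 72.4 and 117 in WT and 56.7, 50.3 and 59.9 in KO. Spag5, a partner of Odf1, was highest at 0.19 (SE 0.22). Odf3l2 was listed at 0 in all animals and Ccdc42 was under the filter.

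For the mitochondrial sheath, which covers the fibres in the midpiece, 6 of 7 genes were negative with a median of -0.52. They ran from Tbc1d21, needed for that sheath, at -1.07 (SE 0.38) to Gk2, a glycerol kinase, at 0.41 (SE 0.72). For the annulus and the connecting piece, which join the midpiece to the principal piece and to the head, 9 of 10 were negative with a median of -0.33. They ran from Spata6 at -1.46 (SE 1.16) to Cntrob at 0.67 (SE 1.78). The low value of Spata6, a protein of the connecting piece, rested on WT 3, at 3137 against 111 to 620.1 in the other 8.

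**Figure D4:**
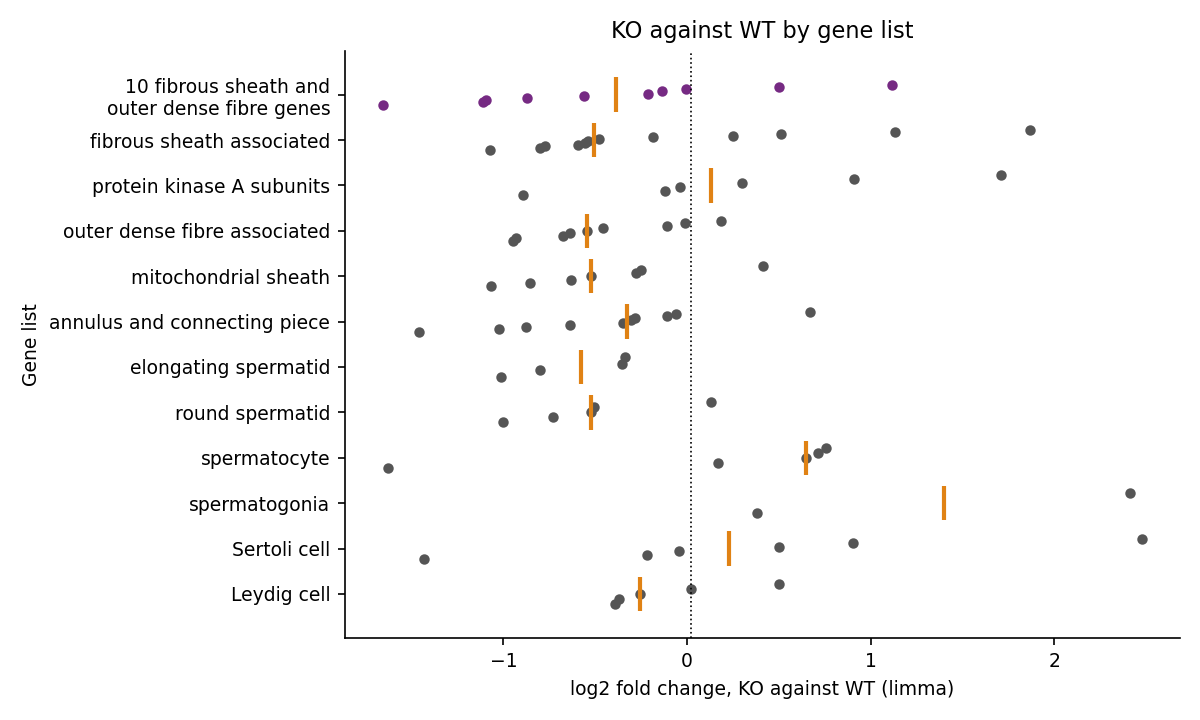
Log2 fold change of KO against WT (limma) for each tested gene of each list (points), with the median of the list as a vertical bar; the dotted line is the median of all genes tested, 0.02. The medians of the tail and spermatid lists lie between -0.58 and -0.33, and that of the protein kinase A subunits at 0.13.

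Markers of the other cell types of the testis did not all lie on 1 side. In KO against WT the median was 0.65 for 5 tested spermatocyte markers and 1.40 for 2 tested spermatogonia markers. It was 0.23 for 6 Sertoli cell markers and -0.26 for 5 Leydig cell markers, and limma called 0 of all these markers. The 2 spermatogonia markers were Gfra1 at 0.38 (SE 0.21) and Lin28a at 2.41 (SE 1.12). Lin28a was near the filter, at 0, 10.6 and 0 in WT and 12.9, 10.6 and 9.8 in KO. The untested Zbtb16 averaged 11.3 in WT and 10.8 in KO, and Nanos3 4.95 and 0. Of the 6 Sertoli cell markers 3 were higher and 3 lower in KO, with Amhr2 lowest at -1.43 (SE 2.17). DESeq2 called the Sertoli cell marker Wt1 (2.78, adjusted p = 0.0412), which limma put at 2.48 (adjusted p = 0.610). Wt1 was at 9.9, 17.4 and 29.0 in WT, 168, 180 and 116 in Het and 155, 199 and 32.2 in KO. DESeq2 called it in Het against WT too (3.04, adjusted p = 2.6e-06). The part of all these markers in the values of the 10 genes was not tested.

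The 10 genes followed several courses over the animals. Over 9 animals the Pearson r of their log2 levels, which come from the same libraries, was between -0.488 (Fsip2 and Ropn1l) and 0.850 (Akap3 and Odf2). The closest pairs were Akap3 and Odf2, Odf1 and Odf4 (0.840), Akap3 and Akap4 (0.818) and Akap4 and Odf2 (0.800). The 5 genes of other kinds nearest to the mean course of the 10, out of 5839 with a mean of at least 100, were Lancl1 (r = 0.984), Arl9 (0.965), 4930570D08Rik (0.963), Gm12666 (0.961) and Yif1b (0.950), each over 9 animals. Lancl1 was at 186, 607 and 600.6 in WT, 106, 535 and 259 in Het and 411, 182 and 286 in KO. It was high in the same 4 animals as Akap4, over a smaller range.

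The genes nearest to single members were picked after the values were seen. Akap4 was matched by Fam71f2 (r = 0.999), Isyna1, the enzyme of inositol synthesis (0.998), and Bub3, a spindle checkpoint protein (0.992). Fam71f2 was between 1624 and 2281 in the 4 high animals and between 16.1 and 52.7 in the 5 low ones. In all, 26 of the 5849 genes, 0.445%, had a gap of at least 4-fold with these 5 animals below it. Odf3 was matched by Nelfcd (0.988), Eif2b2 (0.986) and Tpx2 (0.983), and 38 genes, 0.650%, had a gap with WT 1 and Het 1 below it. Akap3 was matched by Ybx1, an RNA-binding protein (0.964), Chl1 (0.933) and Spata6 (0.926), and 3 genes had a gap with WT 3 alone above it.

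**Figure D5:**
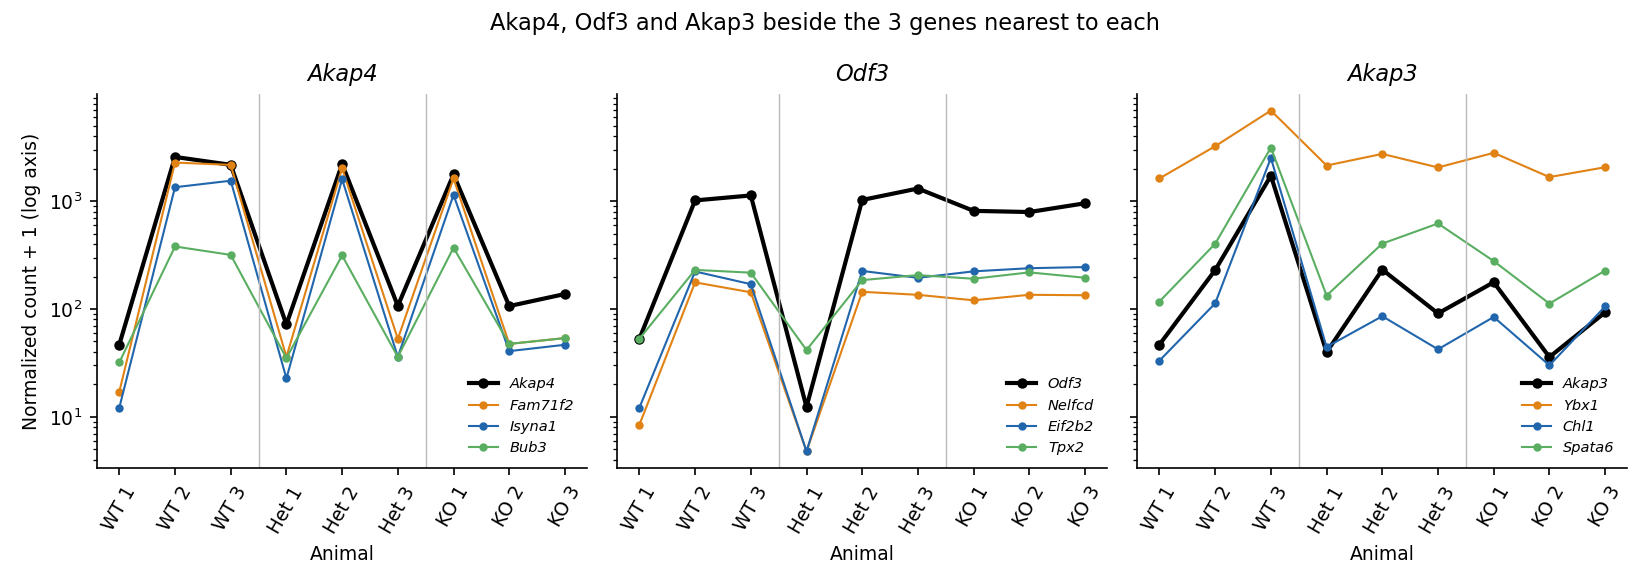
Normalized count + 1 (log axis) of Akap4, Odf3 and Akap3 (black) and of the 3 genes nearest to each (colours) in 9 animals; points are single animals and grey lines divide WT, Het and KO. The curves rise and dip in the same animals: WT 2, WT 3, Het 2 and KO 1 are high with Akap4, WT 1 and Het 1 low with Odf3, and WT 3 high with Akap3.

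Fsip2 followed Sycp2 (r = 0.960), a protein of the meiotic chromosome axis, which was at 1548, 755 and 1183 in WT and 1839.8, 1584 and 1830.3 in KO. The spermatocyte markers Sycp1 and Sycp3 had differences in KO against WT of 0.76 (SE 0.18) and 0.71 (SE 0.20). Their adjusted p were 0.583 and 0.610 from limma. Of the 5 tested genes of that list 4 were positive and 1 was negative. Hormad1 was at 0.65 (SE 0.42), Piwil1 at 0.17 (SE 0.20) and Hspa2 at -1.63 (SE 1.31), and Spo11 was not tested. The level of Hspa2 was 102 in KO 2, against 2939 in KO 1 and 3038 in KO 3. Odf1 followed Hepacam (0.980), Iqgap1 (0.978) and Frat1 (0.970), and Odf4 followed Ap2a2 (0.973), Abcf1 (0.966) and 4930442L01Rik (0.961). Odf2 followed Ubxn11 (0.983), Akap1, an anchoring protein of the mitochondrial surface (0.982), and Gm12666 (0.978). Akap1 was at 641, 861 and 935 in WT, 215, 872 and 484 in Het and 517, 272 and 422 in KO. Its KO values lay below its WT values, as those of Odf2 did, the gene by which it was picked. Over all genes 10.5% had each KO animal below each WT animal. The Het values of Akap1 reached across both other groups.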

How the data were processed

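Testis RNA of 9 males was sequenced with QuantSeq. Per the labels and the study's methods, the authors trimmed reads with Trim Galore 0.4.5, aligned them to GRCm38 (Ensembl 89) with HISAT2 2.1, counted genes with StringTie 1.3.3 and removed pseudogenes. The deposited values are a signal: gene counts divided by 1 size factor per animal, as DESeq2 makes them. In each animal 100% of the values were whole multiples of 1 read, so reads were recovered. Whether the counting used strand is not given in the sources used here. That the 3 replicates of a genotype are separate animals is taken from their numbering, so p-values measure the spread between these samples.

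Genotypes were compared in pairs with limma 3.58.1 (R 4.3.3, trend) on log2(value + 1), for genes that reached a value of 10 in 3 or more of the animals compared, with Benjamini-Hochberg adjustment over all genes tested. Fold changes on this scale understate the change of low genes. Calls needed an adjusted p under 0.05 and a log2 fold change over 1.5, the study's cutoffs. Alternatives were edgeR 4.0.16 and DESeq2 1.42.0 on recovered reads, other scaling, pseudocounts and filters, all animals in 1 fit, a replicate block and each animal left out. A pair of further alternatives, leaving out WT 1 with Het 1 and the rescaling to elongating spermatid markers, was chosen after seeing the data. The fits were tested on simulated data. Annotation was GENCODE vM21, handled with Python 3.11.15, pandas 2.3.3 and numpy 2.4.6, and figures were drawn with matplotlib 3.10.9.

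Genes were named by rule: the 10 genes, of each pathway list the genes with the highest and the lowest KO against WT fold change, and the 5 others nearest to the mean course of the 10. The genes and lists were chosen with earlier results of these data known. Genes outside the rule are the neighbours, the markers and those nearest to single genes.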

Additional observations from a re-analysis of the deposited data

How the results depend on the processing

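In all 3 comparisons 0 of the 10 genes were called under every alternative that gave a test. The median over the 10 in KO against WT stayed negative when each animal was left out in turn (-0.47 to -0.11), as did that in Het against WT (-0.42 to -0.12), while that in KO against Het went from -0.39 to 0.22. Relative to the elongating spermatid markers, a scaling that raises every gene by 0.63, the KO against WT median was 0.24, against 0.65 over all genes tested.

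Some signs turned, each for a gene that was not called. In KO against WT, Fsip1 became 0.070 with edgeR, 0.054 with DESeq2 and 0.20 with total reads per library, and Ropn1l 0.067 with total reads, a scaling that moves the median of all genes by 0.20 (log2). Relative to the elongating spermatid markers Fsip1 became 0.62, Ropn1 0.41, Ropn1l 0.49 and Odf4 0.068, as any gene between -0.63 and 0 must turn. In Het against WT, Odf3 became 0.11 with edgeR and 0.10 with DESeq2 and Fsip2 0.040 with total reads; without WT 1 and Het 1, Fsip1 became -0.076, Ropn1 -0.084, Ropn1l -0.0039, Odf1 0.11 and Odf3 0.11. In KO against Het, Akap4 became -0.22 with edgeR and -0.26 with DESeq2, which gave it no adjusted p, and Fsip1 0.048, 0.024 and, with total reads, 0.041. The cause was not tested.

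With 1 animal left out, KO against WT ran from -2.91 to -0.31 for Akap3, -3.00 to -0.11 for Akap4, -0.19 to 0.29 for Fsip1, -0.33 to 1.87 for Odf3 and -0.38 to 0.037 for Ropn1. Het against WT ran from -2.74 to -0.14 for Akap3, -3.20 to -0.31 for Akap4, -1.49 to -0.45 for Odf2, -0.12 to 0.17 for Fsip1, -0.37 to 0.079 for Fsip2, -0.41 to -0.025 for Odf1, -2.07 to 1.56 for Odf3, -0.00088 to 0.22 for Ropn1 and -0.033 to 0.27 for Ropn1l. KO against Het ran from -0.79 to 0.48 for Akap3, -1.09 to 1.76 for Akap4, -0.19 to 0.29 for Fsip1, -0.65 to 0.39 for Odf2 and -0.45 to 2.92 for Odf3.

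Calls over all genes moved more. KO against WT gave 5 genes, 109 with DESeq2, 2 with a filter at 50, 3 with all 9 animals, and with 1 animal left out 0 (without WT 2, WT 3 or KO 2) to 49 (without WT 1). Het against WT gave 0, with 475 at an unadjusted p under 0.05, 32 with DESeq2 and up to 3 otherwise. KO against Het gave 8, 41 with DESeq2, 4 with a filter at 50 and 4 with all 9 animals, and with 1 animal left out 0 (without Het 3 or KO 1) to 39 (without Het 2). Same-numbered animals of different genotypes had correlations of -0.148 to 0.194, and differently numbered ones -0.245 to 0.198. The ranges overlap, which cannot settle whether same-numbered animals were paired. With the replicate block 0 genes were called in any comparison, 0 of the 10 among them.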
